A study of Mus musculus with 12 samples.

Results

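The genes described here are those of the Wnt pathway that the deposited table holds: Wnt ligands, frizzled receptors, the coreceptors *Lrp5* and *Lrp6*, secreted antagonists, R-spondins with their LGR receptors, the ligases *Rnf43* and *Znrf3*, intracellular and membrane inhibitors, and the TCF/LEF transcription factors. They were chosen by symbol alone, with no use of expression, and 42 of the 18180 genes in the table are members. RefSeq names 59 mouse genes that the same rule would take. The other 17, among them *Dkk1*, *Wif1*, *Wnt1*, *Wnt3a*, *Rspo2* and *Rspo3*, were not analysed here, and since the authors kept only genes with a CPM (read count scaled to library size) above 1 in at least 3 libraries, the members are those that passed a filter on low values. By role the table held 8 of 19 Wnt ligands, 7 of 10 secreted antagonists and 4 of 7 R-spondins and LGR receptors, and all 10 frizzled receptors, both coreceptors, both ligases, all 5 inhibitors and all 4 TCF/LEF factors.

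Bulk RNA was sequenced from 4 populations of EGFR+ cells sorted from each of 3 mouse glioblastomas (GBMs), T3, T4 and T5, which gives 12 libraries and n = 3 per population. All 4 populations came from the same model, which includes a conditional transgene of human EGFR switched on by Cre, germline Cdkn2A-/- and a conditional luciferase reporter, on a background of C57Bl/6J, 129S4, FVBN/J and Balb/cJ by the labels, to which the methods add SJL. Tumors were started by injecting a Cre lentivirus into the brain of adult mice and were collected at end stage. The cells were stained for EGFR together with either PDGFR or Galectin-1, so PDGFRA+ and PDGFRA- cells are the 2 sides of one gate and GAL1+ and GAL1- cells the 2 sides of the other, and the gates may hold the same kinds of cell. There was no normal brain among these libraries. Cre was carried by the virus, so the recombined cells are those the virus reached and their descendants.

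Wnt proteins are secreted lipid-modified ligands that bind a frizzled receptor together with LRP5 or LRP6. In the canonical branch this stops the destruction of beta-catenin, which then acts with TCF/LEF factors on target genes, several of which encode inhibitors of the pathway itself. R-spondins bind LGR receptors and draw off RNF43 and ZNRF3, the ligases that remove frizzled receptors from the surface. In the brain the pathway is known for patterning, for the growth of vessels and the barrier they form, where WNT7A and WNT7B from neural progenitors and oligodendrocyte precursors are the classical signals, and for the control of oligodendrocyte differentiation.

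The sequences before the start site are shown for the 4 members whose levels set the ends of the results below and which have an entry in the RefSeq promoter table (*Fzd7*, *Wnt11* and *Rspo1*, highest in GAL1+ cells, and *Wnt7a*, lowest there). They come from build GRCm38.p6, whereas the authors aligned to mm39, and each is the 250 bases upstream of the start in the direction of the gene. Capitals mark a word that TCF/LEF factors are known to bind (the word CTTTGAA, the word CTTTGAT, the word CTTTGTA or the word CTTTGTT, searched on both strands). *Fzd7* is at chr1:59481897-59482146 (+), *Wnt11* at chr7:98834862-98835111 (+), *Rspo1* at chr4:124986180-124986429 (+) and *Wnt7a* at chr6:91411354-91411603 (-).
Fzd7: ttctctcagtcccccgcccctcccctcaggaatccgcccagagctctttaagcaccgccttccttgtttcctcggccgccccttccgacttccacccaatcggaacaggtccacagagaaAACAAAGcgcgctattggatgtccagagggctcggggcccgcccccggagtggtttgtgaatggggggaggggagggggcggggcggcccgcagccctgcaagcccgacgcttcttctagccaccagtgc
Wnt11: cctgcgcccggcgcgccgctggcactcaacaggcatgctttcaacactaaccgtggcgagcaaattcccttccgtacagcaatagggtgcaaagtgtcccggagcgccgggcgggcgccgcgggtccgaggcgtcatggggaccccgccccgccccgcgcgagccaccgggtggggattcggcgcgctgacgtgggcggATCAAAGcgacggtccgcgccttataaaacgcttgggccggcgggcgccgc
Rspo1: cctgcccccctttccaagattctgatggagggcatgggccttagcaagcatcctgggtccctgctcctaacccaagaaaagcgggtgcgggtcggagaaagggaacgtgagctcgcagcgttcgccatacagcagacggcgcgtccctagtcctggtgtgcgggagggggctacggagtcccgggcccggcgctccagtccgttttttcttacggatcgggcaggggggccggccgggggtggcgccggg
Wnt7a: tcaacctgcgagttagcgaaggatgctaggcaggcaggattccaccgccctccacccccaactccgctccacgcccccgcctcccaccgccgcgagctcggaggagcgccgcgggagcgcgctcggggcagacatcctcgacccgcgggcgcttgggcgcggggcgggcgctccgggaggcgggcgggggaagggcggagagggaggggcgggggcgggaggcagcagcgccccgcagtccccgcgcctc
The *Fzd7* sequence holds AACAAAG, the reverse complement of CTTTGTT, 130 bases before the start. *Wnt11* holds ATCAAAG, the reverse complement of CTTTGAT, 51 bases before the start of this promoter, and its other listed promoter holds none of the words. None of the words stands in the *Rspo1* or *Wnt7a* window. Of the 42 members, 26 had an entry, with 35 promoters in all. A word was present in 5 of the 35 (14.3%; *Fzd7*, *Lef1*, *Tcf7l2*, *Wnt11* and *Wnt5b*), and in 14.8% of all 32851 promoters of this length in the table. A match is a description of the letters, and the data hold no measure of binding.

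The authors deposited log2 CPM, so every level below is a log2 CPM and every difference a log2 fold change. Reads recovered from those values ran from 9851175 to 24117541 per library, and a level of 3 reads, taken as the floor of detection for counting error only, lay between -2.99 and -1.44 log2 CPM depending on the library. Of the 504 values of the 42 members, 12 were at or under the floor, in 8 genes, and none was at 0 reads. *Lgals1*, which encodes Galectin-1, exceeded its GAL1- level by 1.29 in GAL1+ cells (SE 0.22, adjusted p = 0.000967), while the 1.60 difference in *Pdgfra* between PDGFRA+ and PDGFRA- cells did not pass the threshold (SE 0.41, adjusted p = 0.249). The study describes the sorted cells as CD45-, yet leukocyte markers were present in every library. The summed level of 6 pan-leukocyte genes, *Ptprc* (CD45) among them, was 1944 to 2803 CPM for GAL1+ cells, 465 to 1022 for PDGFRA+, 496 to 2161 for PDGFRA- and 61.8 to 164 for GAL1- cells. That of 6 oligodendrocyte precursor genes was 602 to 1809, 3815 to 5814, 1059 to 4058 and 4794 to 5976 CPM in the same order. A pair of PDGFRA- libraries stood apart: the one from T5 had the group's highest leukocyte and lowest precursor sum (2161 and 1059 CPM), and the one from T4 had the highest sum of 8 mural cell and fibroblast genes of all libraries (835 CPM). In bulk samples like these, fewer cells of a type and less RNA per cell cannot be told apart.

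A fit over all 12 libraries, with the tumor as a block, called 19 of the 42 members (45.2%) as differing among the 4 populations at an adjusted p under 0.05 (Benjamini-Hochberg, over the whole table), beside 46.4 percent of all genes. The share of members called was thus near the background. The members split in opposite directions along the Galectin-1 sort, and so did the whole table. Of all genes, 28.9 percent were called higher and 29.3 percent lower in GAL1+ than in GAL1- cells. The orders of means given next were not counted over all genes. In 10 of the 19 (*Wnt7a*, *Wnt7b*, *Fzd2*, *Fzd3*, *Fzd9*, *Lrp6*, *Sfrp1*, *Sfrp2*, *Lgr5* and *Rnf43*) the mean was highest in GAL1- and lowest in GAL1+ cells, and in 7 (*Wnt11*, *Rspo1*, *Fzd5*, *Fzd6*, *Fzd7*, *Lrp5* and *Dkk2*) it was the reverse. *Fzd4* was highest in PDGFRA+ cells and *Tcf7l1* in PDGFRA- cells. Members of the same role stood on both sides: *Wnt11* against *Wnt7a* and *Wnt7b*, *Fzd7* against *Fzd9* and *Fzd3*, *Lrp5* against *Lrp6*, and *Dkk2* against *Sfrp1* and *Sfrp2*.

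**Figure D1:**
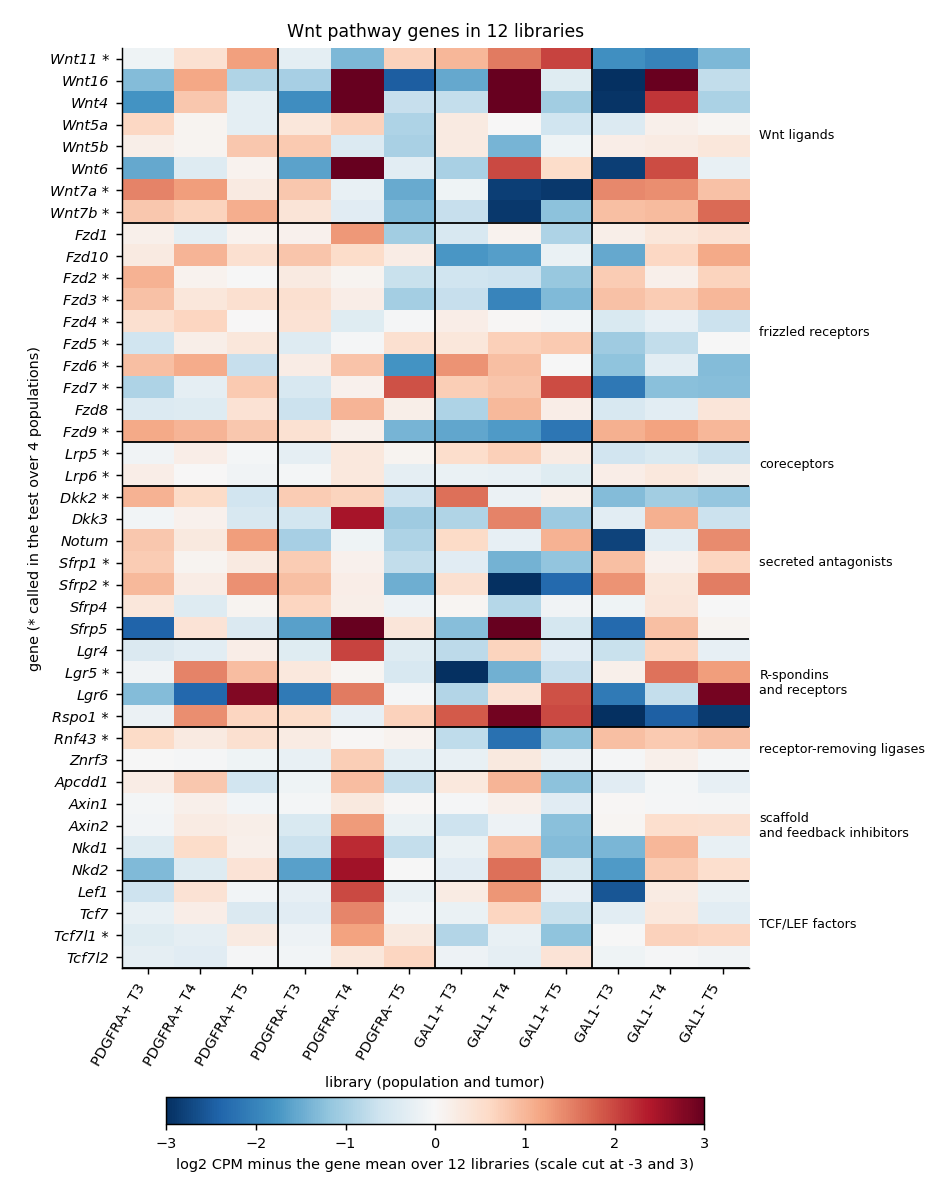
Log2 CPM of the 42 members (rows, grouped by role) in the 12 libraries (columns, by population and tumor), each minus the gene's mean over the 12 libraries, from blue (lower) to red (higher), with colors capped at -3 and 3. The 19 genes with an asterisk were called over the 4 populations, and the dark red cells of *Wnt4*, *Wnt16*, *Sfrp5* and *Dkk3* lie in libraries of T4.

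GAL1+ cells had more *Rspo1*, *Wnt11* and *Fzd7* and less *Wnt7a*, *Fzd9* and *Wnt7b* than GAL1- cells. In this comparison 8 members were higher (19.0%, against 28.9 percent of all genes) and 12 lower (28.6%, against 29.3 percent), and the other 22 did not pass. The median log2 fold change of the members was -0.02 and that of all genes -0.03, with members running from -3.19 to 5.43. PDGFRA+ cells exceeded GAL1+ cells in 10 members (23.8%, against 20.9 percent of all genes) and were below them in 4 (9.52%, against 17.0 percent), with a median of 0.10 for members and 0.01 for all genes. Of PDGFRA+ against GAL1- cells, 5 members were higher (11.9%, against 8.26 percent of all genes) and 0 lower (0.0110 percent of all genes, 2 genes), with medians of -0.07 and -0.02. Between PDGFRA+ and PDGFRA- cells limma called 0 members and 0 percent of all genes. There 6 members had an unadjusted p under 0.05, beside 11.8 percent of all genes. These comparisons share libraries (GAL1+ in the first and second, GAL1- in the first and the third, PDGFRA+ in the last 3), so they are not independent of each other.

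Among the Wnt ligands, *Wnt11*, known mainly for signalling that does not go through beta-catenin, was highest in GAL1+ cells. Its log2 CPM in T3, T4 and T5 was 2.01, 2.57 and 3.03 in GAL1+ cells, 0.89, 1.48 and 2.24 in PDGFRA+ cells, 0.72, -0.34 and 1.71 in PDGFRA- cells and -0.82, -0.99 and -0.33 in GAL1- cells. Every GAL1+ and every PDGFRA+ library was above every GAL1- library, and the PDGFRA+ and GAL1+ values overlapped. *Wnt11* in GAL1+ cells exceeded that in GAL1- cells by 3.25 (SE 0.36, adjusted p = 8.73e-05) and higher in PDGFRA+ than in GAL1- cells by 2.25 (SE 0.36, adjusted p = 0.00438), in 3 of 3 tumors each. The second of these calls was lost without T3 (2.52, adjusted p = 0.082) or without T5 (2.09, adjusted p = 0.0828). Between PDGFRA+ and GAL1- cells limma called 0 of all 18180 genes without T3 and 3.94% without T5, against 8.27% in the main fit. The same background applies to the members below.

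*Wnt7a* and *Wnt7b*, close relatives that signal to brain endothelium through beta-catenin, stood the other way. *Wnt7a* was at 4.57, 4.52 and 4.01 in GAL1- cells and 4.62, 4.37 and 3.38 in PDGFRA+ cells, against 3.0, 0.30 and 0.23 in GAL1+ cells and 3.93, 2.91 and 1.62 in PDGFRA- cells. *Wnt7b* was at 5.12, 5.17 and 5.91 in GAL1- cells, 5.01, 4.88 and 5.30 in PDGFRA+ cells, 4.59, 3.87 and 2.86 in PDGFRA- cells and 3.52, 1.32 and 2.99 in GAL1+ cells. For both genes the GAL1+ libraries lay below all GAL1- and PDGFRA+ libraries, and T3 had the highest of the GAL1+ values. In GAL1+ compared with GAL1- cells *Wnt7a* was lower by a log2 fold change of -3.19 (SE 0.46, adjusted p = 0.000306) and *Wnt7b* by -2.79 (SE 0.51, adjusted p = 0.0012). PDGFRA+ cells exceeded GAL1+ cells by 2.95 in *Wnt7a* (SE 0.46, adjusted p = 0.00207) and by 2.45 in *Wnt7b* (SE 0.51, adjusted p = 0.00623). Between PDGFRA+ and GAL1- cells the values of both genes overlapped, at log2 fold changes of -0.24 for *Wnt7a* (SE 0.46, adjusted p = 0.816) and -0.34 for *Wnt7b* (SE 0.51, adjusted p = 0.765). The other 5 ligands in the table (*Wnt4*, *Wnt5a*, *Wnt5b*, *Wnt6* and *Wnt16*) passed in none of the comparisons of populations.

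*Rspo1*, the only R-spondin in the table, had the widest range of population means of the 42 members. Its level was 2.78, 3.84 and 2.94 in GAL1+ cells (T3, T4 and T5), 0.78, 2.35 and 1.59 in PDGFRA+ cells, 1.5, 0.71 and 1.64 in PDGFRA- cells and -3.29, -1.49 and -1.93 in GAL1- cells. The GAL1- libraries held 2.35, 8 and 6 reads of it, the first under the floor, while the GAL1+ libraries held 95 to 180. GAL1+ libraries were thus above all others and GAL1- libraries below all others. The log2 fold change was 5.43 in GAL1+ over GAL1- cells (SE 0.46, adjusted p = 3.99e-05), 3.81 in PDGFRA+ over GAL1- cells (SE 0.46, adjusted p = 0.00199) and -1.62 in PDGFRA+ over GAL1+ cells (SE 0.46, adjusted p = 0.0228). Without T3 both later calls were lost, at 3.68 (adjusted p = 0.0805) and -1.42 (adjusted p = 0.119), and the last was also lost without T5 (-1.75, adjusted p = 0.0983) and without the replicate block (adjusted p = 0.0626). As for *Wnt11*, 0 of all genes passed between PDGFRA+ and GAL1- cells without T3. With a pseudocount of 1 CPM, which damps ratios of few reads, the first 2 differences were 3.04 and 1.71 and still passed. *Lgr5*, an R-spondin receptor and a stem cell marker in several epithelia, ran against it: 0.11, 1.60 and 1.22 in GAL1- cells and -0.13, 1.46 and 0.90 in PDGFRA+ cells, against -3.14, -1.48 and -0.73 in GAL1+ cells, where reads were 1.43, 4 and 7. It was lower in GAL1+ than in GAL1- cells (-2.76, SE 0.54, adjusted p = 0.00178) and higher in PDGFRA+ than in GAL1+ cells (2.53, SE 0.54, adjusted p = 0.00694), the latter call being lost without T4 (2.32, adjusted p = 0.0565). *Lgr4* and *Lgr6* passed in none of the comparisons. *Rnf43*, the ligase that R-spondins restrain, was at 4.36, 4.24 and 4.34 in GAL1- cells, 4.03, 3.74 and 3.94 in PDGFRA+ cells, 3.72, 3.49 and 3.56 in PDGFRA- cells and 2.71, 1.23 and 2.23 in GAL1+ cells, with no overlap between any of the populations, although the lowest PDGFRA+ value, 3.74, was close to the highest PDGFRA- value, 3.72. It was lower in GAL1+ than in GAL1- cells (-2.26, SE 0.24, adjusted p = 7.5e-05) and higher in PDGFRA+ than in GAL1+ cells (1.85, SE 0.24, adjusted p = 0.00147). Its 0.32 between PDGFRA+ and PDGFRA- cells (adjusted p = 0.636) and -0.41 between PDGFRA+ and GAL1- cells (adjusted p = 0.459) did not pass. *Znrf3*, its paralog, stayed between 3.93 and 4.97 over the 12 libraries and was not called.

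**Figure D2:**
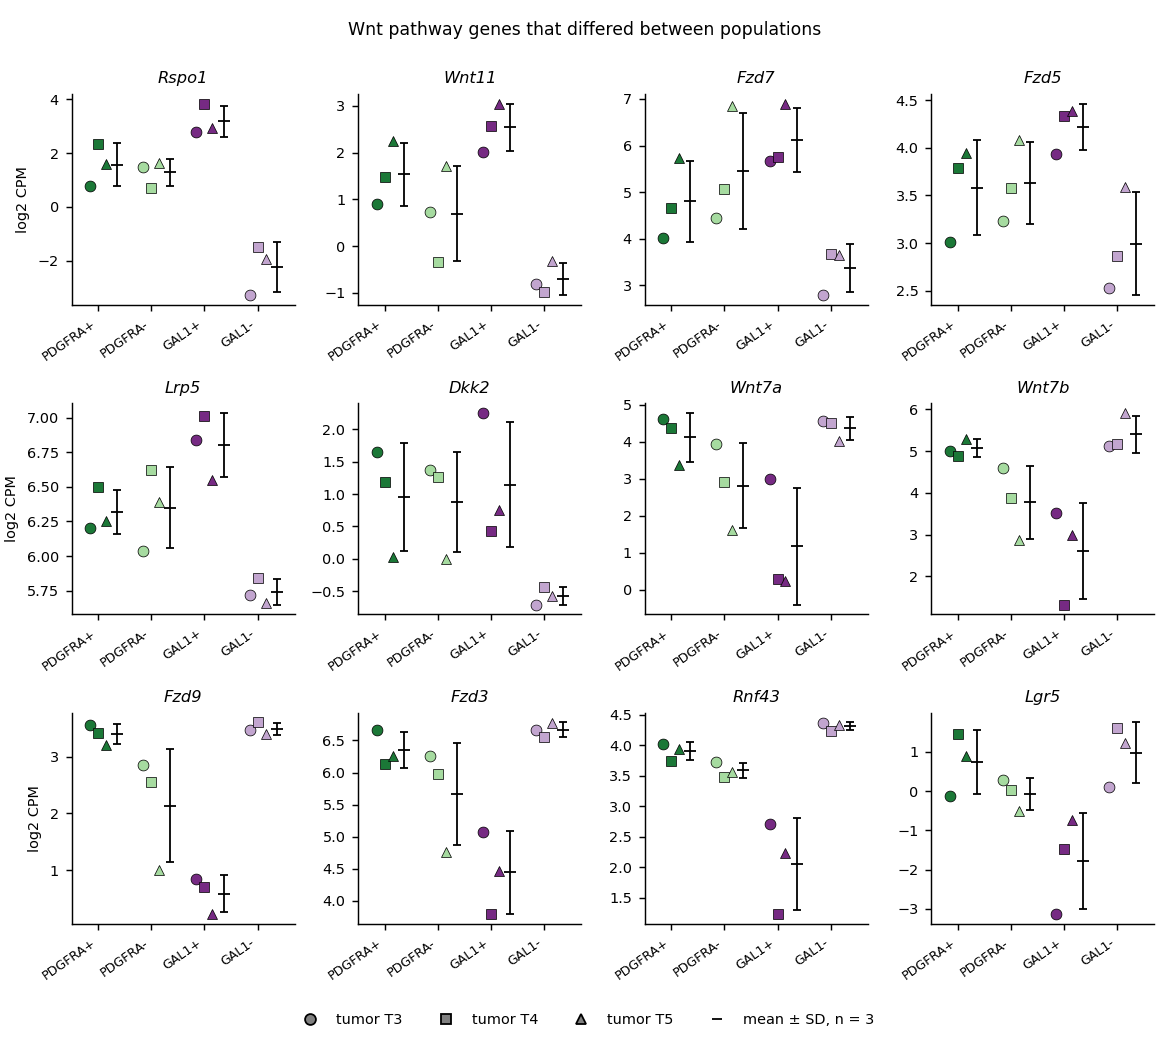
Log2 CPM of 12 members in each population (x axis), with 1 point per library, symbols for tumors T3, T4 and T5, and a bar for the mean ± SD of n = 3. *Rspo1*, *Wnt11*, *Fzd7*, *Fzd5*, *Lrp5* and *Dkk2* have their highest mean in GAL1+ and lowest in GAL1- cells, and *Wnt7a*, *Wnt7b*, *Fzd9*, *Fzd3*, *Rnf43* and *Lgr5* the reverse.

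All 10 frizzled receptors were measured and 7 of them (70%) were called over the 4 populations, beside 46.4 percent of all genes. In GAL1+ against GAL1- cells 3 of the 10 were higher and 3 lower, beside 28.9 and 29.3 percent of all genes. *Fzd7*, a receptor used in both branches of the pathway, was at 5.67, 5.76 and 6.90 in GAL1+ cells (T3, T4 and T5), 4.01, 4.66 and 5.73 in PDGFRA+ cells, 4.45, 5.07 and 6.85 in PDGFRA- cells and 2.78, 3.67 and 3.65 in GAL1- cells. T5 had the highest value in each population but GAL1-, and GAL1- values lay below all others. The fold change was 2.74 in GAL1+ over GAL1- cells (SE 0.30, adjusted p = 7.58e-05), 1.44 in PDGFRA+ over GAL1- cells (SE 0.30, adjusted p = 0.0145) and -1.31 in PDGFRA+ over GAL1+ cells (SE 0.30, adjusted p = 0.00899). Both later calls did not pass without T3 (1.54, adjusted p = 0.142, and -1.13, adjusted p = 0.117) or without the replicate block (adjusted p = 0.367 and 0.152). Without T3, 0 of all genes passed in PDGFRA+ over GAL1- cells. *Fzd5* and *Fzd6* also rose in GAL1+ over GAL1- cells, by 1.23 (SE 0.17, adjusted p = 0.000231) and 1.70 (SE 0.40, adjusted p = 0.00546). *Fzd5* was at 3.94, 4.33 and 4.39 in GAL1+ cells, 3.01, 3.79 and 3.95 in PDGFRA+ cells, 3.23, 3.58 and 4.08 in PDGFRA- cells and 2.53, 2.86 and 3.59 in GAL1- cells, with every GAL1+ library above every GAL1- library. It was lower in PDGFRA+ than in GAL1+ cells (-0.64, SE 0.17, adjusted p = 0.0164), a call lost without T3 (-0.49, adjusted p = 0.183), without T4 (-0.69, adjusted p = 0.055) or without the block (adjusted p = 0.195). *Fzd6* was at 2.15, 1.72 and 0.81 in GAL1+ cells and -0.40, 0.49 and -0.50 in GAL1- cells. Its call was lost without T3 (1.27, adjusted p = 0.0947) and without the block (adjusted p = 0.0684).

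*Fzd9*, *Fzd3* and *Fzd2* followed the other order. *Fzd9* was at 3.46, 3.60 and 3.40 in GAL1- cells, 3.55, 3.42 and 3.21 in PDGFRA+ cells, 2.86, 2.55 and 1.00 in PDGFRA- cells and 0.85, 0.70 and 0.23 in GAL1+ cells. Each PDGFRA- value fell between the GAL1+ and the PDGFRA+ values. The lowest of them was in T5, the library with the highest leukocyte and lowest precursor sum of that population. The part of either cell type in that value was not tested. In GAL1+ against GAL1- cells *Fzd9* was lower, at -2.89 (SE 0.31, adjusted p = 7.5e-05) and in PDGFRA+ against GAL1+ cells it was higher, at 2.80 (SE 0.31, adjusted p = 0.00136). *Fzd3*, a receptor of planar polarity that is needed for axon tracts, was at 6.67, 6.55 and 6.78 in GAL1- cells, 6.66, 6.13 and 6.26 in PDGFRA+ cells, 6.26, 5.98 and 4.76 in PDGFRA- cells and 5.08, 3.79 and 4.46 in GAL1+ cells. The differences were -2.22 (SE 0.32, adjusted p = 0.00034) in GAL1+ against GAL1- cells and 1.91 (SE 0.32, adjusted p = 0.00283) in PDGFRA+ against GAL1+ cells. *Fzd2* was lower in GAL1+ than in GAL1- cells (-1.32, SE 0.28, adjusted p = 0.00324), from 1.61 to 2.23 in GAL1- and from 0.32 to 0.86 in GAL1+ libraries. It was higher in PDGFRA+ than in GAL1+ cells by 1.17 (SE 0.28, adjusted p = 0.0122), a call lost without T3 (0.93, adjusted p = 0.163). *Fzd10* was higher in PDGFRA+ than in GAL1+ cells (1.79, SE 0.62, adjusted p = 0.0469), with 2.25 to 7 reads in GAL1+ libraries and 15.25 to 17 in PDGFRA+ libraries. That call was lost in 9 of 13 alternatives. These were the absence of each tumor (1.35 to 2.35, adjusted p = 0.0562 to 0.258), no block (adjusted p = 0.0891), only the 2 populations (adjusted p = 0.0566), voom weights (1.69, adjusted p = 0.0873), a pseudocount of 1 CPM (0.62, adjusted p = 0.0618), median centring (1.63, adjusted p = 0.0585) and the absence of the PDGFRA- library of T4 (adjusted p = 0.0512). *Fzd4*, the Norrin receptor of retinal and brain vessels, was higher in PDGFRA+ than in GAL1- cells (0.83, SE 0.21, adjusted p = 0.0405), with 3.11 to 3.74 in PDGFRA+ and 2.46 to 2.85 in GAL1- libraries. It was likewise lost in each tumor's absence (0.77 to 0.92, adjusted p = 0.0852 to 0.279), without the block (adjusted p = 0.104), without a mean-variance trend (adjusted p = 0.0516), after median centring (0.71, adjusted p = 0.0922) and after quantile normalization (0.67, adjusted p = 0.127). In that comparison 0 of all genes passed without T3. *Fzd1* and *Fzd8* were not called. *Fzd1* was at 5.67, 5.22 and 5.62 in PDGFRA+, 5.64, 6.81 and 4.48 in PDGFRA-, 5.03, 5.62 and 4.60 in GAL1+ and 5.68, 5.85 and 5.96 in GAL1- cells (T3, T4 and T5).

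The coreceptors *Lrp5* and *Lrp6* had the highest log2 CPM of the members, before any scaling for length, and moved apart by small amounts. *Lrp5* was at 6.84, 7.01 and 6.55 in GAL1+ cells (T3, T4 and T5), 6.20, 6.50 and 6.25 in PDGFRA+ cells, 6.04, 6.62 and 6.39 in PDGFRA- cells and 5.72, 5.84 and 5.66 in GAL1- cells, with GAL1- libraries below all others. Its excess in GAL1+ over GAL1- cells was 1.06 (SE 0.13, adjusted p = 0.000121). It was also higher in PDGFRA+ than in GAL1- cells (0.58, SE 0.13, adjusted p = 0.0195) and lower in PDGFRA+ than in GAL1+ cells (-0.48, SE 0.13, adjusted p = 0.0164). The first of those calls was lost when any 1 tumor was left out (0.54 to 0.63, adjusted p = 0.107 to 0.207), without the block (adjusted p = 0.121) or after median centring (0.47, adjusted p = 0.0633), and the second without T3 (-0.41, adjusted p = 0.112), T4 (-0.47, adjusted p = 0.101) or the block (adjusted p = 0.0784). For the first, 0 of all genes passed without T3. *Lrp6* was at 7.25, 7.37 and 7.23 in GAL1- cells and at 6.87, 6.83 and 6.70 in GAL1+ cells, a difference of -0.49 (SE 0.12, adjusted p = 0.00762) that passed with all tumors but not without T5 (-0.46, adjusted p = 0.0537). PDGFRA+ libraries (6.95 to 7.26) lay above those of GAL1+ cells and overlapped those of GAL1- cells, and PDGFRA- libraries (6.79 to 7.37) overlapped both.

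Of the 7 secreted antagonists, 3 (42.9%) were called over the 4 populations, beside 46.4 percent of all genes. *Sfrp1*, a frizzled-related protein that binds Wnt ligands, was at 2.82, 2.04 and 2.56 in GAL1- cells, 2.69, 1.99 and 2.18 in PDGFRA+ cells, 2.69, 2.04 and 1.19 in PDGFRA- cells and 1.57, 0.50 and 0.73 in GAL1+ cells. It was lower in GAL1+ than in GAL1- cells (-1.54, SE 0.27, adjusted p = 0.00106) and higher in PDGFRA+ than in GAL1+ cells (1.36, SE 0.27, adjusted p = 0.00573), the second call being lost without T3 (1.47, adjusted p = 0.0653). *Sfrp2* was at 1.85, 0.83 and 2.04 in GAL1- cells against 0.98, -3.07 and -1.83 in GAL1+ cells, where T4 and T5 held 1 and 3 reads and T3 33. The call of -2.88 in GAL1+ against GAL1- cells (SE 0.76, adjusted p = 0.00942) was lost without T5 (-2.39, adjusted p = 0.0638), and that of 2.67 in PDGFRA+ against GAL1+ cells (SE 0.76, adjusted p = 0.0228) was lost without T4 (2.10, adjusted p = 0.0989), without T5 (2.15, adjusted p = 0.117) and without the block (adjusted p = 0.067). *Dkk2*, which binds LRP5 and LRP6, rose in GAL1+ over GAL1- cells by 1.72 (SE 0.45, adjusted p = 0.00878), from -0.71, -0.43 and -0.57 to 2.25, 0.43 and 0.76. Without T3, the tumor with the highest value, it did not pass (1.10, adjusted p = 0.143). *Dkk3*, *Notum*, *Sfrp4* and *Sfrp5* were not called.

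*Axin1*, the scaffold of the complex that destroys beta-catenin, was not called. Its level was 5.15, 5.38 and 5.14 in PDGFRA+, 5.17, 5.51 and 5.25 in PDGFRA-, 5.19, 5.36 and 4.88 in GAL1+ and 5.25, 5.18 and 5.15 in GAL1- cells (T3, T4 and T5). Of the scaffold and feedback inhibitors (*Axin1*, *Axin2*, *Apcdd1*, *Nkd1* and *Nkd2*), 0 of 5 were called by limma over the 4 populations, beside 46.4 percent of all genes. *Axin2*, the most widely used readout of canonical signalling, was at 4.18, 4.63 and 4.60 in GAL1- cells, 4.04, 4.36 and 4.29 in PDGFRA+ cells, 3.66, 5.39 and 3.91 in PDGFRA- cells and 3.50, 3.97 and 2.86 in GAL1+ cells. It was lower in GAL1+ than in GAL1- cells (-1.03, SE 0.31, adjusted p = 0.0169), a call lost without T3 (-1.20, adjusted p = 0.0517), without T5 (-0.68, adjusted p = 0.166) and without the block (adjusted p = 0.06). Its 0.79 in PDGFRA+ over GAL1+ cells did not pass (adjusted p = 0.0694). A list of 9 genes that canonical signalling is known to induce (*Axin2*, *Nkd1*, *Apcdd1*, *Notum*, *Rnf43*, *Znrf3*, *Lef1*, *Tcf7* and *Lgr5*) had 1 gene higher (*Lef1*) and 3 lower (*Axin2*, *Lgr5* and *Rnf43*) in GAL1+ than in GAL1- cells, with a median of 0.01. That is 44.4% of the list called in either direction, beside 58.2% of all genes. Of the 9, 2 (22.2%) were higher and 0 lower in PDGFRA+ than in GAL1+ cells, beside 20.9 and 17.0 percent of all genes. Between PDGFRA+ and GAL1- cells limma called 0 of the 9, beside 8.27 percent of all genes. There 0 of the 9 had an unadjusted p under 0.05, beside 3150 of all 18180 genes. Among the TCF/LEF factors, *Tcf7l1*, known mainly as a repressor, was lower in GAL1+ than in GAL1- cells (-1.22, SE 0.29, adjusted p = 0.00559), from 3.46, 4.17 and 4.12 to 2.59, 3.25 and 2.27, and did not pass without T5 (-0.90, adjusted p = 0.0523). *Lef1* passed at 1.28 (SE 0.48, adjusted p = 0.0421) on differences of 2.81, 1.08 and -0.04 in T3, T4 and T5, so it was higher in only 2 of 3 tumors. It was lost without T3 (0.52, adjusted p = 0.391), without T4 (1.38, adjusted p = 0.0971), without the block (adjusted p = 0.2), with only the 2 populations (adjusted p = 0.107) and without a trend (adjusted p = 0.0571). Without T5 it was 1.95 (adjusted p = 0.0164). *Tcf7* and *Tcf7l2* were not called. *Tcf7l2* was at 5.21, 5.12 and 5.43 in PDGFRA+, 5.39, 5.81 and 6.12 in PDGFRA-, 5.33, 5.20 and 5.88 in GAL1+ and 5.35, 5.44 and 5.37 in GAL1- cells.

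**Figure D3:**
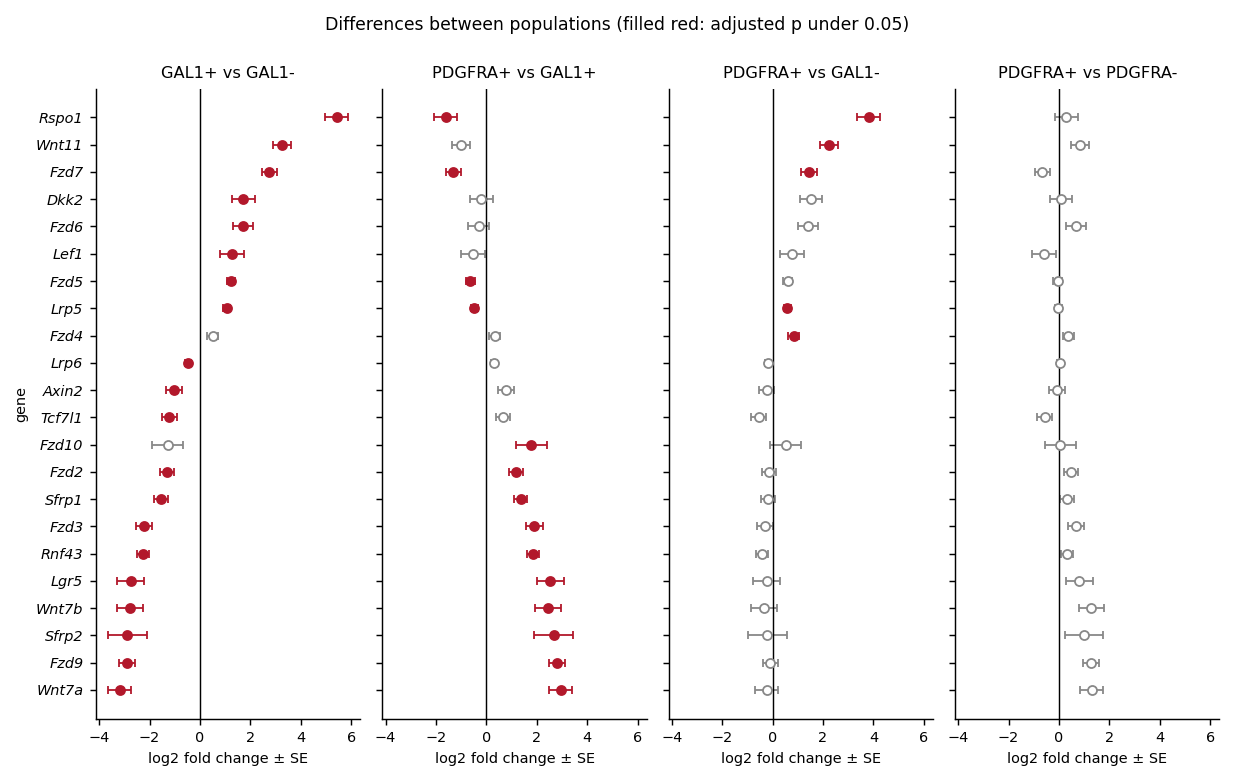
Log2 fold change ± SE (x axis) of the 22 members called in at least 1 comparison (rows), first population over second, in the 4 comparisons, with filled red points for adjusted p under 0.05 and open gray points for the rest. The 20 red points of GAL1+ against GAL1- cells lie on both sides of 0, and the panel of PDGFRA+ against PDGFRA- cells has no red point.

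PDGFRA+ and PDGFRA- cells could not be separated by these genes at the adjusted threshold. The 6 members with an unadjusted p under 0.05 were *Wnt7a* (1.30, SE 0.46), *Wnt7b* (1.29, SE 0.51), *Fzd9* (1.26, SE 0.31) and *Wnt11* (0.84, SE 0.36), all with higher values in PDGFRA+ cells, and *Tcf7l2* (-0.52, SE 0.16) and *Sfrp5* (-1.54, SE 0.64), with lower ones. Their adjusted p ran from 0.239 to 0.418, and each had the same sign in 3 of 3 tumors. For *Fzd9* the differences were 0.69, 0.87 and 2.21 in T3, T4 and T5, and for *Wnt7b* 0.42, 1.01 and 2.44. The largest was in T5, where the PDGFRA- library held the most leukocyte and the least precursor marker RNA of its group. For *Sfrp5* it was -3.04 in T4 and -0.78 and -0.79 in the others. The summed level of 5 oligodendrocyte genes was 227 to 283 CPM in PDGFRA+ and 626 to 946 CPM in PDGFRA- libraries, with log2 fold changes of -1.14 to -2.78 that did not pass (adjusted p = 0.202 to 0.214). The part of leukocytes, precursors and oligodendrocytes in these values was not tested.

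Markers of several other cell types moved along with the sort. Of GAL1+ against GAL1- cells, all 6 leukocyte, 6 microglia and 6 macrophage genes were higher, as were 7 of 8 endothelial and 7 of 8 mural cell and fibroblast genes, and all 6 oligodendrocyte precursor and 5 oligodendrocyte genes were lower. Beside them, 28.9 percent of all genes were higher and 29.3 percent lower. Of 6 T and NK cell genes limma called 0, with 0 at an unadjusted p under 0.05, and 1 of 5 astrocyte, 1 of 4 neuron and 1 of 3 ependymal and choroid plexus genes was lower. The endothelial sum was 304 to 357 CPM for GAL1+, 151 to 300 for PDGFRA+, 197 to 243 for PDGFRA- and 43.2 to 82.2 for GAL1- libraries, and the mural cell and fibroblast sum was 272 to 732, 214 to 623, 202 to 835 and 86.8 to 319 CPM. No marker of these lists was under the floor in all 3 libraries of a population. PDGFRA+ cells were called above GAL1- cells in 6 of 6 leukocyte, 6 of 6 microglia and 5 of 6 macrophage genes, beside 8.26 percent of all genes. The same held for 7 of 8 endothelial and 3 of 8 mural cell and fibroblast genes. Precursor sums of these 2 populations overlapped, and the 6 precursor genes ran from -0.46 to -0.20, all lower in PDGFRA+ cells (median -0.33). Limma called 0 of the 6 and 0 had an unadjusted p under 0.05, beside 0.0110 percent of all genes called lower. The part of the marked cell types in the differences of *Rspo1*, *Wnt11*, *Fzd7*, *Lrp5*, *Wnt7a*, *Wnt7b* and the other members was not tested.

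Further genes of the pathway, not members by the rule, leaned one way. Of 57 genes, listed with earlier results of these data known, 53 were in the table. In GAL1+ against GAL1- cells 31 of them were lower and 3 higher, beside 29.3 percent of all genes lower and 28.9 percent higher, with a median of -0.66 against -0.03 for all genes. The largest falls were in *Apc2* (-2.77, SE 0.31, adjusted p = 9.54e-05), a neural relative of the tumor suppressor APC, *Cxxc4* (-2.44), an inhibitor of Dishevelled, *Dact3* (-2.15), another Dishevelled partner, and *Pygo1* (-2.07), a beta-catenin coactivator. *Tmem88* (0.83), *Wls* (0.61) and *Tle4* (0.41) rose, of which WLS carries Wnt proteins to the surface. Among these 53, planar polarity genes were lower in 7 of 10, cytoplasmic genes in 12 of 18 and nuclear genes in 7 of 12. The other receptors and coreceptors were lower in only 2 of 9, and the other secreted antagonists in 2 of 2. The 2 secretion genes split, 1 lower and 1 higher. *Ctnnb1*, the beta-catenin gene, did not pass (-0.05, SE 0.10). PDGFRA+ cells were above GAL1+ cells in 25 of the 53 and below them in 1 (*Wls*, -0.35), beside 20.9 and 17.0 percent of all genes, with a median of 0.43 against 0.01. The same *Apc2* (2.41), *Cxxc4* (1.90), *Dact3* (1.82) and *Pygo1* (1.75) led. In PDGFRA+ against GAL1+ cells all 6 oligodendrocyte precursor genes were also higher. All 6 leukocyte, all 6 macrophage and 4 of 6 microglia genes were lower there. The part of the marked cell types in the differences of the 53 genes was not tested. Between PDGFRA+ and GAL1- cells limma called 0 of 53, beside 8.26 percent of all genes higher and 0.0110 percent lower. An unadjusted p under 0.05 was found for 3 of the 53, beside 3150 of all 18180 genes. Every PDGFRA+ library was below every GAL1- library in 15 of the 53 and above in 2, beside 1677 and 2788 of all genes. The medians were -0.15 for the 53 and -0.02 for all genes, so the count of 0 does not show equal levels.

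Levels can be compared between genes only per length. Divided by the summed exon length of each gene (GENCODE M21), the mean over the 12 libraries was highest for *Fzd1* (3.45 log2 CPM per kb), *Dkk3* (3.40), *Axin1* and *Lrp6* (both 3.28), *Lrp5* (3.02) and *Fzd7* (2.75), and lowest for *Lgr5* (-3.39), *Wnt16* (-2.50) and *Fzd10* (-2.23). Among frizzled receptors the order of *Fzd7* changed with the population: at 3.93 in GAL1+ cells it stood above *Fzd1* (3.02) and *Fzd3* (0.77), and at 1.18 in GAL1- cells below both (3.76 and 2.99). Among Wnt ligands *Wnt7b* led in GAL1- cells (3.11), with *Wnt7a* at 2.70 and *Wnt11* at -2.76, whereas in GAL1+ cells the 3 were at 0.32, -0.49 and 0.49. No test was made of differences between genes.

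Several members varied more with the tumor than with the sort, and these are given as a description chosen after their values were seen. In 16 of 42 members (38.1%) the range of the 3 tumor means exceeded that of the 4 population means, against 29.1% of all genes. In 23 (54.8%, against 25.7% of all genes) the highest tumor mean was in T4. For *Wnt4*, *Wnt16*, *Sfrp5*, *Dkk3*, *Nkd1* and *Tcf7* the 4 libraries of T4 were each above the other 8, which is 6 of 42 members (14.3%), while 1.23 percent of all genes showed this. Outside T4, *Wnt16* (at most -0.73) and *Sfrp5* (at most -0.30) stayed below 1 CPM, so both passed the authors' filter only through T4. The 14.3% thus includes genes that the filter kept for their T4 values. *Sfrp5* met the rule narrowly, with a lowest T4 value of -0.25. *Wnt4* in T4 was at 1.88 for PDGFRA+, 5.23 for PDGFRA-, 4.26 for GAL1+ and 3.20 for GAL1- cells, against -1.89 to 0.77 in the other 8 libraries. *Wnt16* was at 0.79, 3.80, 2.71 and 2.58 in T4 and between -3.48 and -0.73 elsewhere. *Dkk3*, a divergent member of the Dickkopf family, was at 5.28, 7.63, 6.63 and 6.21 against 4.06 to 5.08. The PDGFRA- library had the highest T4 value of these 3 genes and the PDGFRA+ library the lowest. The mural cell and fibroblast sum in T4 was 835 CPM for PDGFRA-, 732 for GAL1+, 461 for PDGFRA+ and 319 for GAL1- cells. In T3 the same sum was 685 CPM for GAL1+ and 623 for PDGFRA+ cells, where *Wnt4* was at 0.34 and -0.73 and *Wnt16* at -1.92 and -1.67. The part of mural cells and fibroblasts in the levels of either tumor was not tested. *Lgr6*, an R-spondin receptor, was instead highest in T5 in 3 populations, at 4.53 for PDGFRA+, 3.68 for GAL1+ and 4.63 for GAL1- cells, and in PDGFRA- cells it was at 1.72 in T5 and 3.32 in T4.

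**Figure D4:**
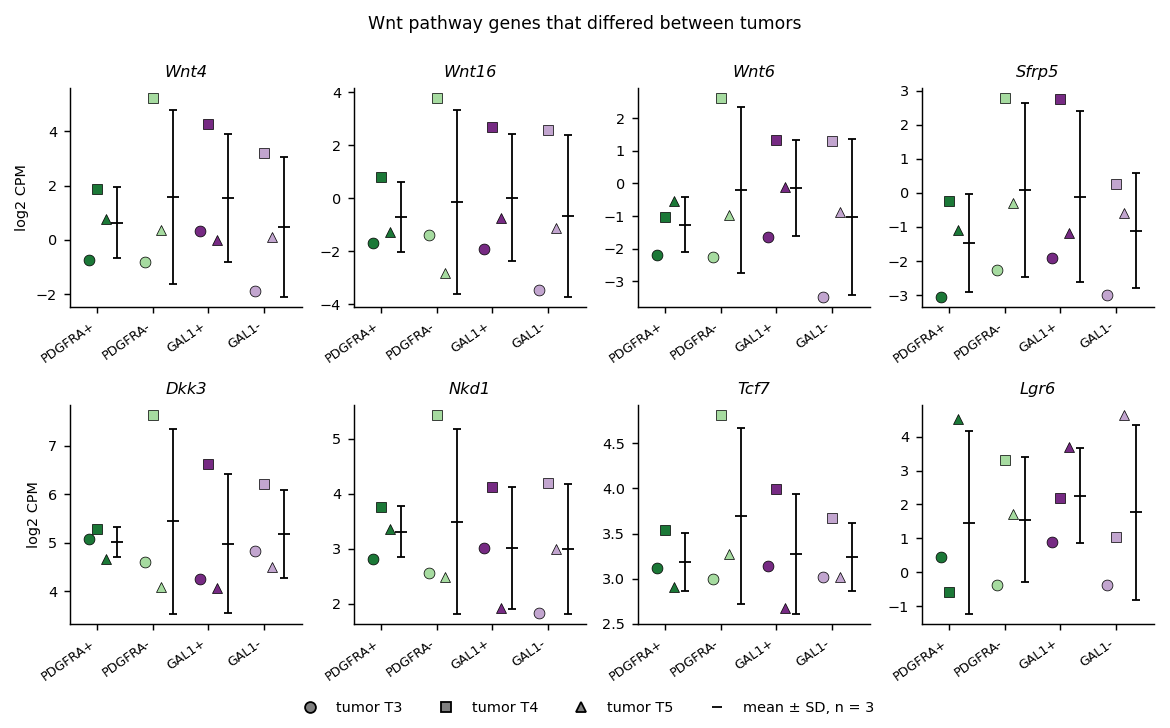
Log2 CPM of 8 members in each population (x axis), with 1 point per library, symbols for tumors T3, T4 and T5, and a bar for the mean ± SD of n = 3. The squares (T4) lie above the other 8 libraries for *Wnt4*, *Wnt16*, *Sfrp5*, *Dkk3*, *Nkd1* and *Tcf7*, and the triangles (T5) are highest for *Lgr6* in all populations but PDGFRA-.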

How the data were processed

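RNA from flow-sorted EGFR+ cells was made into libraries from 1 ng with the SMARTer Stranded Total RNAseq v3 Pico kit. The authors trimmed reads with fastp, aligned them with STAR to mm39, counted them on exons with featureCounts (multi-mapping reads as fractions, so close paralogs can share reads), dropped genes unless their CPM passed 1 in 3 or more samples, and applied TMM, voom and limma with tumors as covariates. The deposited values are log2 CPM with an offset of 0.5 reads. Reads were recovered here by setting the lowest value of a library to 0 reads, and 41.3% to 59.2% of values per library came out whole within 0.01.

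The 12 libraries and 18180 genes were fitted with limma 3.58.1 in R 4.3.3, using population terms and a block for tumor (moderated two-sided tests with a mean-variance trend, residual degrees of freedom 6, prior 3.49). Adjusted p-values are Benjamini-Hochberg over all genes, called under 0.05. The fit was tested on simulated data. One further allele of the model is not reported here. Tumor numbers in the labels pair the libraries: the 18 same-tumor pairs had deviations correlated at 0.14 to 0.662. Each p-value rests on the spread left among the 12 libraries after the population and tumor terms, moderated over genes. A comparison of 2 populations thus also draws on the spread in the other populations. Promoters, gene names and exon lengths came from RefSeq (GRCm38.p6) and GENCODE M21, read by gene name. The members and lists were chosen with earlier results of these data known. Per-library values were given for members called in a comparison and among its 10 largest changes, for the 6 most abundant members and for those called over all populations in a role where others were not, and the other pathway genes named are up to 4 of the largest called rises and falls in a comparison. *Ctnnb1* was named after its values were seen. Alternatives were no block, only the 2 populations compared, no trend, robust estimation, a pseudocount of 1 CPM, voom weights computed from the recovered reads, a filter at log2 CPM above 1 in 3 samples, median centring, quantile normalization, and leaving out each tumor or the PDGFRA- library of T5. Leaving out the PDGFRA- library of T4 was added after seeing the data. Python 3.11.15 and matplotlib 3.10.9 drew the figures.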

Additional observations from a re-analysis of the deposited data

How the results depend on the processing

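Without the replicate block the number of members called was 11 over the 4 populations (19 with it), 8 in PDGFRA+ against GAL1+ cells (14 with it), 2 in PDGFRA+ against GAL1- cells (5 with it) and 17 in GAL1+ against GAL1- cells (20 with it). The shares of all genes called fell as well, to 30%, 17.3%, 3.37% and 46.2% in the same order, from 46.4%, 38%, 8.27% and 58.2% with the block. In PDGFRA+ against GAL1- cells 10 members were called with only the 2 populations in the fit and 3 after median centring, beside 18.6% and 6.99% of all genes. Leaving out 1 tumor gave 11 to 15 members over the 4 populations, 16 to 22 in GAL1+ against GAL1- cells, 7 to 12 in PDGFRA+ against GAL1+ cells and 0 to 3 in PDGFRA+ against GAL1- cells, each lowest without T3. The shares of all genes were 25.6% to 32.6%, 44.4% to 46.6%, 11.6% to 26.7% and 0% to 6.19% in the same order. Leaving out the PDGFRA- library of T5 or of T4 gave 18 and 20, 20 and 21, 15 and 16, and 6 and 5 in the same order. The shares of all genes were then 48.1% and 50.6%, 60.1% and 61%, 42.2% and 43.4%, and 10.4% and 10.6%. In PDGFRA+ against PDGFRA- cells limma called 0 members in the main fit and in each alternative run. Of the 39 calls of a member in a comparison, 18 passed in every alternative run, 21 were lost in at least 1 and 0 reversed. A pseudocount of 1 CPM moved called differences by over 1.5 times for *Rspo1*, *Wnt11* (3.25 to 2.08 and 2.25 to 1.29), *Dkk2* (1.72 to 0.99), *Fzd6* (1.70 to 1.05), *Lgr5* (-2.76 to -1.17 and 2.53 to 1.03) and *Sfrp2* (-2.88 to -1.31 and 2.67 to 1.15), all still called, and for *Fzd10*, which was lost. Centring moved the median log2 fold change of all genes to -0.15 in PDGFRA+ against GAL1+ cells and to -0.13 (quantile normalization -0.15) in PDGFRA+ against GAL1- cells. Searched singly, the 4 promoter words, in the order given, stood in 0%, 5.71%, 2.86% and 5.71% of member promoters and 4.46%, 3.21%, 3.20% and 5.03% of all. The cause of these shifts was not tested. Depth limits the rarest members: *Sfrp2*, *Lgr5* and *Fzd10* held 1 to 7 reads in most GAL1+ libraries.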
